A study of Mus musculus with 6 samples.

Results

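Motile cilia are the beating hair-like organelles of ciliated airway cells, and their shaft, the axoneme, is a ring of microtubule doublets around a central pair. Rows of outer and inner dynein arms on the doublets bend the shaft, while radial spokes, the nexin-dynein regulatory complex and the central pair control the beat. Tektins and many of the proteins named CFAP (cilia and flagella associated protein) lie inside the doublets or tie these parts together, and sperm tails use the same design with some members of their own. In the lung these genes are switched on as airway cells become multiciliated, under regulators such as Foxj1 and the Rfx factors.

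The genes described were those whose symbol on the array begins with Dnah, Dnal, Rsph, Cfap, Tekt, Drc, Odad or Spag followed by a number or letter, or is Dnai with a number. Of 18193 genes with 1 symbol on the array, 61 met this rule, and no symbol beginning with Odad or reading Dnai with a number was among them. Where a gene had several probe sets, the one with the highest mean, taken over the 6 arrays without regard to genotype, stood for it. The set holds 5 outer arm and 5 inner arm dynein heavy chains, 3 light chains, 6 radial spoke genes, 2 genes of the regulatory complex, 5 tektins, 4 Spag genes of the central pair, 25 Cfap genes and 6 other Spag genes. The rule goes by symbol, so it also takes in genes that are not parts of the axoneme. Among them are Spag4 (a nuclear envelope protein), Spag5 (astrin, of the mitotic spindle), Spag9 (a kinase scaffold) and Spag7. Genes that help assemble dynein arms, such as Spag1, Cfap298 and Cfap300, are in the set as well. The outer arm intermediate chains are listed on the array as Dnaic1 and Dnaic2 and so fall outside it. Genes for docking the outer arm are on the array under other symbols, such as Ccdc114, Ccdc151, Armc4 and Ttc25. They were counted below among other axoneme genes.

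The 6 samples were left lung lobes of mouse embryos of strain C57/BL6 at E18.5, shortly before birth. Of these, 3 were wild type and 3 carried a conditional knockout (CKO) of Smad1 in the lung epithelium, arranged as 3 pairs of 1 wild type and 1 CKO animal. Smad1 is a transcription factor that carries bone morphogenetic protein signals. The labels give neither the Cre driver nor the alleles of the wild type animals. Total RNA of the whole lobe was hybridised to an Affymetrix Mouse430_2 array, 1 per animal, so ciliated cells contributed only a part of the signal, and fewer ciliated cells cannot be told apart from less RNA per ciliated cell. Levels are log2 intensities. A difference is the CKO level less that of the wild type partner, so a negative value means less signal in the CKO lung, and means over the 3 pairs carry the SD over pairs. Nothing in the labels says more about how far the animals were independent. In the paired fit, p-values rest on the spread of the 3 pair differences from these 6 samples, with variance information shared over probe sets.

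Whole-array facts bear on every value. Smad1 intensity itself was 1026, 1089 and 739 in wild type lungs 1 to 3 and 1111, 1577 and 529 in CKO lungs 1 to 3. Which part of the gene was deleted is unknown here, so these values do not check the labels. CKO lung 3 stood apart: its control signal for 18S ribosomal RNA was 2887 where the rest ranged from 243 to 297, and for beta-actin it was 5820 where the rest ranged from 18445 to 20900. CKO lung 1 differed from the other 5 lungs in sex-linked genes, with Xist at 10.95 (log2) against 6.07 to 7.70. The Y-linked gene Eif2s3y was at 3.78 there, against 7.06 to 9.04. By these genes CKO lung 1 was female and its wild type partner male, so sex and genotype cannot be told apart in pair 1. Pair 2 holds neither of these lungs. The part of either lung's difference in the results below was not tested, and pair values are given throughout.

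Promoter windows show one feature of these genes that the rule did not use. RFX factors, which act on cilium genes, bind the X-box, a pair of inverted arms, and windows of 300 bases around RefSeq gene starts (250 before, 50 after, build GRCm38.p6) were searched on both strands for the arms GTNNCC and GNAAC with 3 bases between them, where N is any base. Of the 61 genes, 52 had a window, and 10 of those (19.2%) held the pattern, against 673 of 27025 genes with a window (2.49%). The short core GTTGCCA, which can overlap the longer pattern, was found in 13.5% of the cilium genes against 5.02% of all, and the forkhead pattern GTAAACA, searched because Foxj1 is a forkhead factor, in 7.69% (4 genes) against 4.05%. A match describes letters and is not a shown binding site. Of the 10 genes with the X-box pattern, 2 were lower and 3 higher in CKO lungs in all 3 pairs and 5 were mixed, where 29.3% of all genes were lower and 21.0% higher in all pairs, and nothing is read from counts this small.
The windows of 4 of these genes are printed because they include both directions, the first 2 lower and the last 2 higher in all pairs, with the X-box pattern in capitals. They lie, in order, at chr14:8666241-8666540, minus strand; chr16:16829314-16829613, minus strand; chr2:145934534-145934833, plus strand; and chr17:25471340-25471639, plus strand.
Cfap20dc: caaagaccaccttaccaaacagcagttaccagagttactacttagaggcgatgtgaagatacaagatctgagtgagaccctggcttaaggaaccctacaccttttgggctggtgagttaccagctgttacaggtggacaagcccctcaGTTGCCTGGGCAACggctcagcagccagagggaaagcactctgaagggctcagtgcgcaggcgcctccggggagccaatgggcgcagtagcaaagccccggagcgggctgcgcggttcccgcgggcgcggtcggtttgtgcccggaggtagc
Spag6l: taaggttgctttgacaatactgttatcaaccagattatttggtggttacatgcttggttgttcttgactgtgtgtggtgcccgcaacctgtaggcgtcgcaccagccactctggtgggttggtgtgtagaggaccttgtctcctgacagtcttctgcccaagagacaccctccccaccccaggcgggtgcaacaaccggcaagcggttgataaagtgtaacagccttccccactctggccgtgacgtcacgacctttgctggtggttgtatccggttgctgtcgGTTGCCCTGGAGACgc
Cfap61: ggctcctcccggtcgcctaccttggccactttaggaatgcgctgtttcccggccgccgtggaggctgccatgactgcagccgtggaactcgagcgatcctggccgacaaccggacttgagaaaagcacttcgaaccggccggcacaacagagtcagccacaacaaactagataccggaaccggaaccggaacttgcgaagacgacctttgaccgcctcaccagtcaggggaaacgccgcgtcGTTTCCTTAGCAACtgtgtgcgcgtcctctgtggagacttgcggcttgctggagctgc
Tekt4: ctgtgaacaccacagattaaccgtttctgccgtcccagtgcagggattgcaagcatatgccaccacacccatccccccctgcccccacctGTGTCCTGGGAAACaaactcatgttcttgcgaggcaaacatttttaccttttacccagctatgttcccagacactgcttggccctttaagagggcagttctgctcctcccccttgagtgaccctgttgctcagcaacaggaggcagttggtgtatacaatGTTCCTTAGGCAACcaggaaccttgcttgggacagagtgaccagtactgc
In Cfap20dc the matched stretch, GTTGCCTGGGCAAC, matches on both strands and begins 102 bases before the start. In Cfap61 the match, GTTTCCTTAGCAAC, begins 8 bases before the start, in Tekt4 there are 2 separate matches, and in Spag6l the match is on the opposite strand, just after the start.

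Differences of both signs were found among the motile cilium genes. None of the 61 passed the test across all 45037 probe sets (limma with the pair as a block, lowest adjusted p = 0.367), where 1 probe set on the whole array did (0.00222%) and 0 of the 18193 representative probe sets did (0.0%). At an unadjusted p under 0.05, 6 genes were lower and 3 higher, or 9.84% and 4.92%, and the shares over all genes were 9.96% and 4.96%. Both shares lay close to this background. The counts depended on the pairs used, as did the shares over all genes. Without pair 1 they were 3 and 0 (all genes 1.76% and 0.17%), and without pair 2 they stayed at 6 and 3 while the shares over all genes were 18.7% and 8.58%, so the members then lay below the background. Without pair 3 they were 3 and 2 (6.19% and 3.53%), without CKO lung 1 they were 3 and 0 (1.71% and 0.33%), and without CKO lung 3 they were 2 and 0 (2.54% and 1.42%), the 2 being Dnah8 and Cfap20dc. The mean was below 0 in 37 genes (60.7%, against 55.7%). The median difference was -0.15, against -0.09 over all genes, with medians of -0.0019, -0.0020 and -0.25 in pairs 1 to 3, against -0.09, -0.0018 and -0.16. Without pair 3 the median was 0.0023, and without CKO lung 3 alone, with the pairs ignored, it was 0.016.

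Counts by direction were also close to the background. All 3 pairs were lower in 18 genes (29.5%, against 29.3% of all genes) and higher in 13 (21.3%, against 21.0%), and 30 were mixed. The CKO levels all lay below the wild type levels in 5 genes (8.2%, against 6.05% of all genes) and all above in 4 (6.56%, against 4.25%). At least 1.5-fold lower on average were 8 genes (13.1%, against 17.1%) and at least 1.5-fold higher were 3 (4.92%, against 6.15%). In pair 2 the median absolute difference of the cilium genes was 0.118, against 0.128 over all genes, and 3 genes exceeded 0.5 there: Dnah8, Cfap20dc and Tekt5, all lower. In pair 1, 16 genes exceeded 0.5, and in pair 3, 30 did. The median absolute differences of the cilium genes there were 0.283 and 0.496, against larger ones of 0.352 and 0.645 over all genes. The absolute difference was largest in pair 3 for 38 genes, in pair 1 for 23 and in pair 2 for 0. This split was not counted over all genes, whose medians ran in the same order of pairs. The plot of differences in each pair shows this ordering for every gene.

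**Figure D1:**
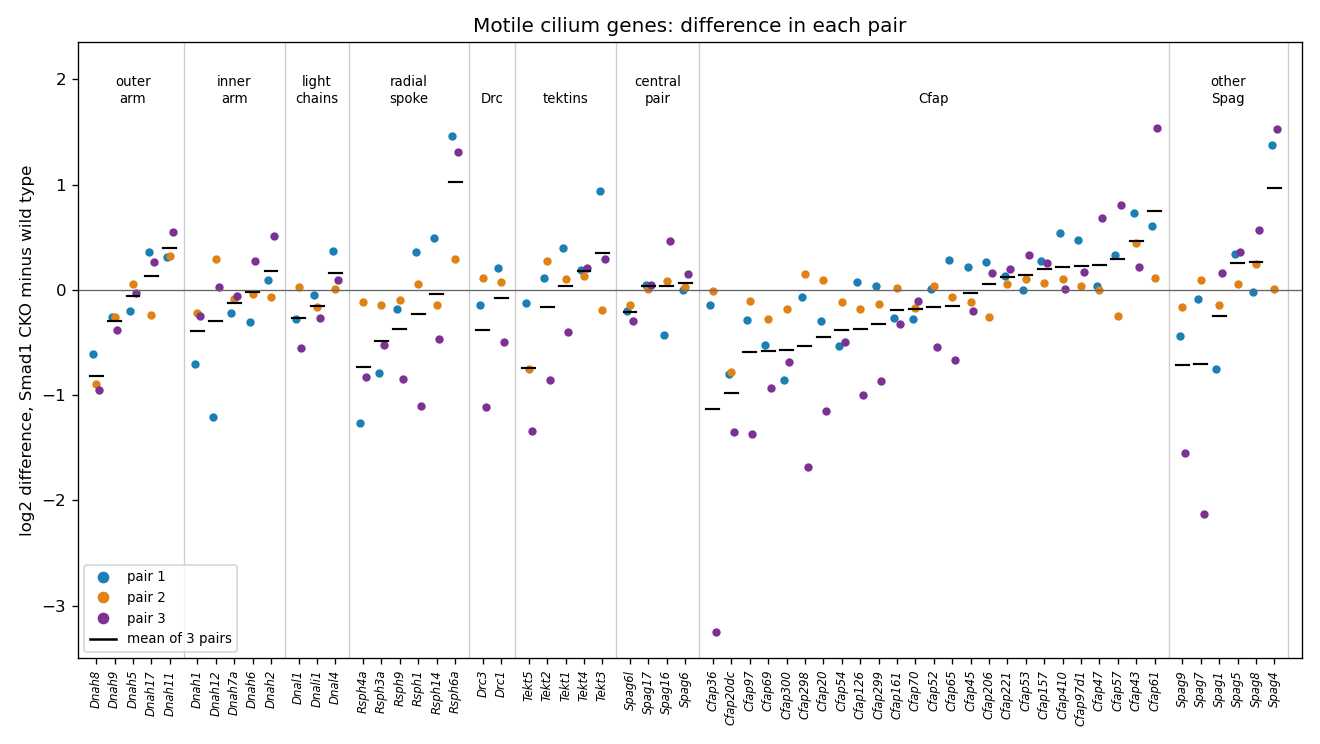
Log2 difference between Smad1 CKO and wild type (vertical axis) in pairs 1, 2 and 3 (coloured points) and their mean (black bar) for the 61 genes, grouped by role along the horizontal axis. Pair 2 lies near 0 for most genes, with Dnah8, Cfap20dc and Tekt5 its lowest points, while points of pair 3 reach -3.25 for Cfap36.

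Differences followed signal level in pair 3 and, less strongly among bright genes, in pair 1. Among the dimmest tertile of all genes the medians in pairs 1 to 3 were 0.25, 0.032 and 0.36, and among the brightest tertile they were -0.29, -0.028 and -1.09. The 16 cilium genes in the dimmest tertile had medians of 0.034, -0.045 and 0.16, and the 10 in the brightest tertile -0.21, -0.059 and -1.12. The 35 in the middle tertile had medians of 0.0076, 0.0056 and -0.25, against -0.15, -0.010 and -0.17 for all genes of that tertile. All 10 bright cilium genes had a mean below 0, as did 5610 of the 6064 bright genes on the array. A low mean of a bright member therefore went with signal level as well as with genotype. The dim cilium genes followed level less. Of these 16, 7 had a mean below 0, against 900 of the 6065 dim genes on the array. Their median difference was 0.047, against 0.24 for all dim genes. A high mean of a single dim member may still go with signal level.

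**Figure D2:**
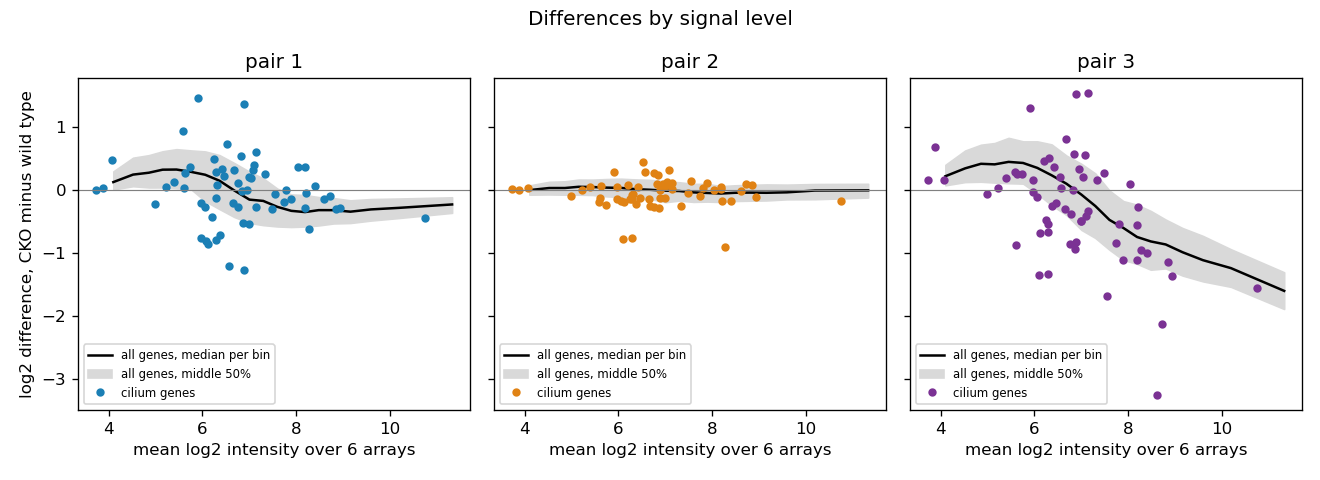
Log2 difference (CKO minus wild type) in each pair against the mean log2 intensity over 6 arrays, for the cilium genes (points) and all 18193 genes (line: median in each of 20 bins of equal size; band: middle 50%). In pair 1 the line falls from 0.33 at a level of 5.45 to -0.35 at 8.19. In pair 2 the line stays near 0, while in pair 3 it falls steadily above a level of about 6, and most bright cilium genes follow it.

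Outer arm heavy chains, the motors that supply most of the force of the beat, included 3 genes whose groups did not overlap, 2 lower and 1 higher. Over all genes 6.05% did not overlap with CKO lower and 4.25% with CKO higher, and 5 genes are too few to set against these shares. Dnah8, a heavy chain known mainly from sperm tails, was at 8.76, 8.94 and 8.38 on the wild type arrays of pairs 1 to 3 and 8.15, 8.04 and 7.42 on the CKO arrays. Every CKO lung lay below every wild type lung, and pair 2 differed as much as the others, with -0.61, -0.90 and -0.96 in pairs 1 to 3. On average Dnah8 differed by -0.82 ± 0.19 (SD, 3 pairs), a 1.77-fold lower signal, with a 95% interval of -1.29 to -0.35 (limma, adjusted p = 0.367). Without CKO lung 3 it was -0.60 and without pair 3 -0.75. It was smaller after other scalings, at -0.52 after a further quantile normalization and -0.44 after cyclic loess. The second, dimmer Dnah8 probe set went the other way, at 0.24, and the mean over both was -0.29, no longer under the unadjusted 0.05.

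Dnah9, a heavy chain of the outer part of airway cilia, was at 6.94, 6.97 and 6.86 on the wild type arrays of pairs 1 to 3 and 6.68, 6.71 and 6.48 on the CKO arrays. The groups did not overlap and the pairs were close together, at -0.26, -0.26 and -0.38 in pairs 1 to 3, with a mean of -0.30 ± 0.07 (SD, 3 pairs). Its dimmer probe set was at 0.27, again opposite in sign. Dnah11, its partner nearer the base of the cilium, was higher in every CKO lung than in any wild type lung, at 6.80, 6.83 and 7.001 on the wild type arrays of pairs 1 to 3 and 7.11, 7.15 and 7.55 on the CKO arrays. Its mean difference was 0.40 ± 0.14 (SD, 3 pairs), from 0.31, 0.32 and 0.55 in pairs 1 to 3, and it had 1 probe set. It was 0.26 without CKO lung 3, and 0.60 and 0.56 after quantile and cyclic loess normalization, where its unadjusted p went below 0.05. The intervals of both genes included 0, from -0.75 to 0.15 for Dnah9 and -0.06 to 0.85 for Dnah11, and neither passed (limma, adjusted p = 0.389 and 0.367). Dnah5, the heavy chain most often mutated in primary ciliary dyskinesia, was at -0.06 ± 0.13, and Dnah17, a sperm tail chain, at 0.13 ± 0.32.

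**Figure D3:**
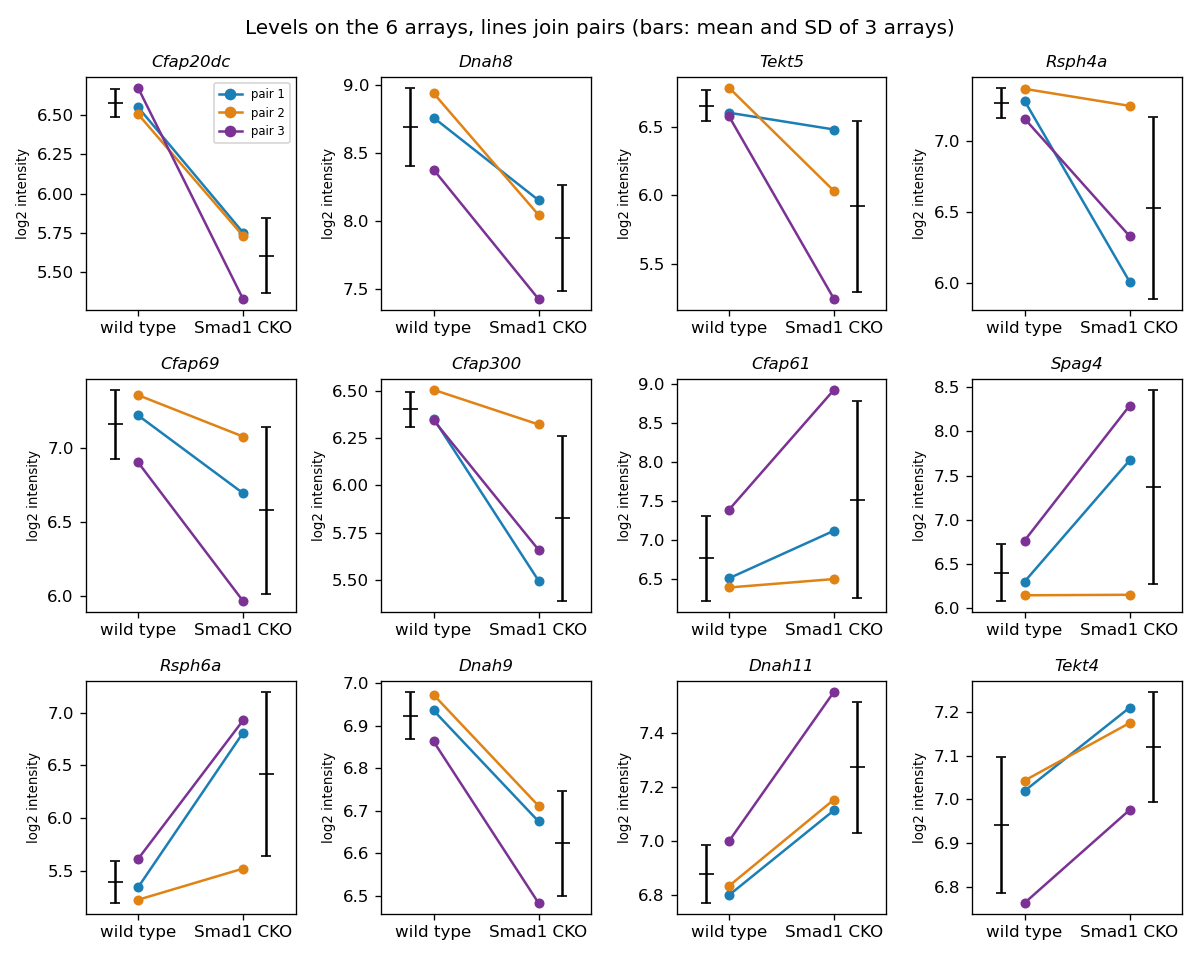
Log2 intensity on each array (points, joined within pairs; black bars are mean and SD of 3 arrays) for the 9 genes with an unadjusted p under 0.05 and for Dnah9, Dnah11 and Tekt4, each panel with its own axis. Groups do not overlap for Cfap20dc, Dnah8, Tekt5, Cfap300, Dnah9 and Dnah11, while pair 2 is nearly level for Rsph4a, Cfap61 and Spag4.

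Inner arm heavy chains, which shape the bend, lay between -0.39 for Dnah1 and 0.18 for Dnah2, and 0 of the 5 reached an unadjusted p under 0.05. Dnah1 was at 6.85, 6.64 and 6.24 on the wild type arrays of pairs 1 to 3 and 6.15, 6.42 and 5.99 on the CKO arrays, lower in each pair with a mean of -0.39 ± 0.27, although wild type lung 3 lay below CKO lung 2 and its other probe set was at 0.20. Dnah12 differed in pair 1 alone, with -1.21, 0.29 and 0.03 in pairs 1 to 3, and its mean turned to 0.16 without that pair. Dnah7a was at -0.12, and since near-identical copies (Dnah7b and Dnah7c) share a probe set on the array, its own level is uncertain. The light chains were close to 0: Dnal1 at -0.27 ± 0.29, Dnali1, an inner arm light chain, at -0.16 ± 0.11 and Dnal4 at 0.16 ± 0.19. The signs of Dnal1 and Dnali1 turned after quantile or cyclic loess normalization. Although CKO levels of Dnal4 all lay above wild type, its pair 2 difference was 0.0045.

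Both intermediate chains, which anchor the outer arm and lie outside the rule by their array symbols, were lower on average. Dnaic2 was at 7.38, 7.52 and 7.22 on the wild type arrays of pairs 1 to 3 and 6.30, 7.32 and 5.76 on the CKO arrays, with -1.08, -0.20 and -1.46 in pairs 1 to 3 and a mean of -0.91 ± 0.65 (limma, adjusted p = 0.367). Dnaic1 was at -0.32 ± 0.46, with a positive difference in pair 2 (-0.59, 0.21 and -0.58 in pairs 1 to 3). Both were looked up after the array symbols had been seen.

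Radial spoke genes held members at both ends of the set. Rsph4a, a spoke head protein of airway cilia whose loss causes primary ciliary dyskinesia, was at 7.28, 7.37 and 7.16 on the wild type arrays of pairs 1 to 3 and 6.01, 7.25 and 6.33 on the CKO arrays. CKO lungs 1 and 3 lay well below wild type, while CKO lung 2 lay between wild type lungs 3 and 1, and the mean difference was -0.74 ± 0.58 (SD, 3 pairs). Rsph6a, its counterpart in sperm, was at 5.35, 5.23 and 5.61 on the wild type arrays of pairs 1 to 3 and 6.81, 5.52 and 6.93 on the CKO arrays. Here CKO lungs 1 and 3 were high and CKO lung 2 lay within the wild type range, for a mean of 1.02 ± 0.64 (SD, 3 pairs), the highest of the 61. Both had an unadjusted p under 0.05 and an adjusted p of 0.367 (limma), and without pair 1 they were at -0.47 and 0.80, no longer below 0.05.

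Among the other spoke genes, Rsph9 and Rsph1 differed most in pair 3. Rsph9, a spoke head protein, was at 7.93, 8.03 and 7.84 on the wild type arrays of pairs 1 to 3 and 7.74, 7.93 and 6.995 on the CKO arrays, with a mean of -0.37 ± 0.41, and Rsph1, also of the spoke head, had pair values of 0.36, 0.05 and -1.10 in pairs 1 to 3. The mean of Rsph1, -0.23, turned to 0.21 without pair 3 and to 0.14 after cyclic loess. Rsph3a was at -0.49 ± 0.33, lower in each pair, but its dimmer probe set was higher in each pair, with a mean of 0.40. In addition, 1 probe set on the array is shared by Rsph3a and Rsph3b. Rsph14 was at -0.04 ± 0.49. Drc1 and Drc3, of the regulatory complex that links neighbouring doublets, were at -0.07 ± 0.37 and -0.38 ± 0.65. Both were positive in pair 2, and CKO lung 3 was the lowest lung for each.

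Tektins, filament proteins inside the doublet microtubules, were mixed. Tekt5, known from sperm tails, was at 6.61, 6.79 and 6.58 on the wild type arrays of pairs 1 to 3 and 6.48, 6.03 and 5.24 on the CKO arrays. All CKO levels lay below wild type, but the size ran widely over the pairs, at -0.12, -0.76 and -1.34 in pairs 1 to 3, with a mean of -0.74 ± 0.61 (SD, 3 pairs), and -0.44 without pair 3. Tekt4 was slightly higher in each pair, at 0.19, 0.13 and 0.21 in pairs 1 to 3, with the small mean of 0.18 ± 0.04 and an interval of -0.27 to 0.62. Tekt1, a tektin of airway cilia, was at 0.03 ± 0.40, Tekt2 at -0.16 ± 0.61 and Tekt3 at 0.35 ± 0.56, none with 1 direction in all pairs. Among central pair Spag genes, Spag6l was lower by a like amount in each pair (-0.20, -0.14 and -0.29 in pairs 1 to 3), Spag17 was at 0.03 ± 0.02 and Spag16 at 0.04 ± 0.45. The sign of Spag17 turned after quantile or cyclic loess normalization and that of Spag16 after cyclic loess. Spag6, a near copy of Spag6l, was at 3.72 (log2, mean of 6 arrays), among the dimmest probe sets.

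The 25 Cfap genes had a median difference of -0.16, with 7 lower and 6 higher in all 3 pairs (all genes 29.3% and 21.0%). Cfap20dc, named for a domain like that of the doublet junction protein Cfap20, was at 6.55, 6.51 and 6.68 on the wild type arrays of pairs 1 to 3 and 5.75, 5.73 and 5.33 on the CKO arrays. The groups did not overlap, pair 2 differed as much as pair 1 (-0.80, -0.78 and -1.35 in pairs 1 to 3), and the mean was -0.98 ± 0.32 (SD, 3 pairs), a 1.97-fold lower signal with a 95% interval of -1.50 to -0.46 (limma, adjusted p = 0.367). It was -0.84 without CKO lung 3 and -1.08 after cyclic loess. Its 2 dimmer probe sets were at 0.18 and 0.23, and the mean over all 3 was -0.19, no longer under the unadjusted 0.05.

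Of the other Cfap genes with an unadjusted p under 0.05, Cfap69, needed for sperm tails, was at 7.22, 7.36 and 6.90 on the wild type arrays of pairs 1 to 3 and 6.69, 7.08 and 5.97 on the CKO arrays. It was lower in each pair, with a mean of -0.58 ± 0.33, and its 3 probe sets all had a negative mean, from -0.58 to -0.32. Its difference was -0.27 without CKO lung 3 and -0.40 without pair 3, no longer under 0.05 in either, nor with the pairs ignored, after quantile normalization or without dim probe sets. Cfap300, needed to assemble dynein arms, was at 6.35, 6.51 and 6.35 on the wild type arrays of pairs 1 to 3 and 5.50, 6.32 and 5.66 on the CKO arrays, with no overlap and a mean of -0.58 ± 0.35. Cfap61, of the radial spoke base, was at 6.51, 6.40 and 7.39 on the wild type arrays of pairs 1 to 3 and 7.12, 6.50 and 8.93 on the CKO arrays, where CKO lung 3 stood far above the rest and the mean of 0.75 ± 0.73 was 0.36 without pair 3 and 0.046 without CKO lung 3 alone. None of these passed across all probe sets (limma, adjusted p = 0.367).

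In several Cfap genes pair 3 differed far more than the others. Cfap36 had the lowest mean of the 61, -1.13 ± 1.84, yet its levels were 9.14, 9.29 and 9.10 on the wild type arrays of pairs 1 to 3 and 8.998, 9.28 and 5.85 on the CKO arrays, and without pair 3 it was at -0.08. Cfap298, a dynein assembly factor, had -0.07, 0.15 and -1.69 in pairs 1 to 3. Of its dimmer probe sets, 2 went the other way, higher in each pair and most so in pair 3, with means of 0.65 and 0.66. The last had a mean of -0.25. Cfap20 and Cfap97 had -0.29, 0.09 and -1.15 in pairs 1 to 3 and -0.28, -0.11 and -1.37 in pairs 1 to 3. Cfap43, a tether between dynein and doublet, was higher in each pair, with 0.73, 0.44 and 0.21, and a mean of 0.46 ± 0.26. Its other probe sets had means of 0.66 and -0.40, the latter lower in each pair. Close to 0 were Cfap52 (-0.16) and Cfap45 (-0.03), proteins of the doublet interior, Cfap53 (0.15), which helps dock outer arms, and Cfap221 (0.13), of the central pair. Cfap126 (Flattop) was at -0.37, Cfap54, of the central pair, at -0.38, and the other Cfap genes lay between -0.32 and 0.30.

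The 6 Spag genes outside the central pair lay between -0.72 and 0.97. Spag4 was at 6.30, 6.15 and 6.76 on the wild type arrays of pairs 1 to 3 and 7.67, 6.15 and 8.29 on the CKO arrays, high in CKO lungs 1 and 3 and within 0.0056 of wild type in pair 2, with a mean of 0.97 ± 0.84. It was 0.69 without pair 3 and 0.51 without CKO lung 3 alone, above 0.05 in both. Spag9 and Spag7 were at -0.72 ± 0.73 and -0.71 ± 1.23, with -1.55 and -2.13 in pair 3. Spag1, a dynein assembly factor, was at -0.25 ± 0.46, and Spag8, of the doublet interior, at 0.26 ± 0.29. Spag5 (0.25), like Cfap410 (0.22), Dnal4 and Dnah11 above, had no overlap with CKO higher, and these names were chosen after their values were seen. The other probe sets of Spag5 (-0.08 and -0.39) and Cfap410 (-0.36) went the other way. Leaving out Spag4, Spag5, Spag7 and Spag9 kept the median of the remaining 57 genes at -0.15, with 17 lower and 11 higher in all pairs (all genes 29.3% and 21.0%). These 57 still hold dynein assembly factors and are not all parts of the axoneme.

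Other genes of the cilium programme were set beside these. At an unadjusted p under 0.05, 9.96% of all genes were lower and 4.96% higher, and each count below is to be set against these shares over lists of few genes. Among 8 measured cilium regulators the median was 0.14, with 0 lower and 1 higher, Rfx2. Foxj1, the main switch of the programme, was at 8.24, 8.25 and 7.66 on the wild type arrays of pairs 1 to 3 and 8.19, 8.08 and 7.03 on the CKO arrays, with pair values of -0.05, -0.17 and -0.63 in pairs 1 to 3 and a mean of -0.29 ± 0.31. Wild type and CKO levels overlapped, and lung 3 of each genotype was the lowest of its group. Rfx3 was at -0.48 ± 0.29 and Rfx2 at 0.89 ± 0.82, the latter with 1.74 in pair 1 and 0.09 in pair 2. Dynein assembly factors (7 genes) had a median of -0.29 with 2 lower and 0 higher: Lrrc6 at -0.68 ± 0.30 and Dnaaf4 at -0.52 ± 0.27. In all 3 pairs, 3 of the 8 regulators were lower and 2 higher, as were 2 and 1 of the 7 assembly factors (all genes 29.3% and 21.0%).

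Of 42 other axoneme genes, 3 were lower and 0 higher at an unadjusted p under 0.05 (all genes 9.96% and 4.96%), with a median of -0.26. Stk36, a kinase needed for the central pair, was at 7.59, 7.72 and 7.51 on the wild type arrays of pairs 1 to 3 and 6.49, 6.96 and 6.59 on the CKO arrays, and Wdr63, an inner arm protein, at 6.69, 6.73 and 5.76 on the wild type arrays of pairs 1 to 3 and 5.76, 5.91 and 5.15 on the CKO arrays. Stk36 did not overlap between genotypes and was at -0.93 ± 0.17, while Wdr63 was at -0.79 ± 0.17 and overlapped through wild type lung 3. The third was Lrrc34 at -0.72 ± 0.48. Intraflagellar transport genes, which build all cilia, had a median of -0.31 over 23 genes with 3 lower and 0 higher, and basal body genes one of -0.22 over 12 with 2 lower and 0 higher. The intraflagellar genes were Ift74 (-0.90 ± 0.92), Ift20 (-0.78 ± 0.61) and Ttc21b (-0.52 ± 0.22), and the basal body genes Plk4 (-0.79 ± 0.56), the kinase that starts centriole assembly, and Cep41 (-0.45 ± 0.03). None of these genes passed across all probe sets (limma, lowest adjusted p = 0.367). In all 3 pairs, 16 of the 42 axoneme genes were lower and 3 higher. The counts were 10 and 2 of the 23 intraflagellar genes, and 4 and 1 of the 12 basal body genes. Over all genes 29.3% were lower and 21.0% higher in all pairs.

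Of the listed markers of ciliated cells, 16 were measured. Ccdc153, one of these, was at 9.06, 9.07 and 8.92 (log2) on the wild type arrays of pairs 1 to 3 and 8.81, 9.02 and 7.38 on the CKO arrays. The median difference of the 16 was -0.52, with -0.32, -0.09 and -1.20 in pairs 1 to 3, and 0 passed at an unadjusted p under 0.05 in either direction. The mean was below 0 in 15 of the 16, and 9 were lower and 0 higher in all 3 pairs (all genes 29.3% and 21.0%). All 16 lay above the array median. Of the 11841 genes there, 9155 had a mean below 0, and 4956 were lower and 1181 higher in all pairs. The summed intensity of these markers was 12718 to 14386 in wild type and 4678 to 13150 in CKO lungs. That of the 61 cilium genes was 10615 to 12466 and 7233 to 11853. These sums are linear, so the brightest genes weigh most in them. Tuba1a and Tubb4b, among the markers, were at 12.66 and 11.34 (log2) in wild type lung 1, and Spag9, among the 61, at 11.16. The sums therefore do not stand for ciliated cells alone. Tppp3, a tubulin polymerization protein, was at -0.65 ± 0.65 and Capsl at -0.73 ± 0.74.

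Most lists for other cell types were lowest in pair 3. Club cell markers, of the secretory cells beside ciliated cells, had medians of -0.15, -0.06 and -1.46, with sums of 35530 to 47478 in wild type and 11153 to 44233 in CKO lungs. General epithelial markers had medians of 0.015, 0.21 and -1.09. Alveolar type 2 markers, by contrast, were at -1.10, -0.84 and -2.56 and alveolar type 1 markers at -0.37, -0.26 and -1.63. Lower in each pair were 8 of 9 and 9 of 9 of these genes, against 29.3% of all genes. Mitotic genes were at -0.58, -0.14 and -1.001, and fibroblast and endothelial markers at -0.21, 0.040 and -1.86 and at -0.72, -0.63 and -1.59. Basal and neuroendocrine markers had medians of 0.32 and 0.29 for the mean of the pairs, blood and immune markers -0.17, and germ cell genes, with sums of 313 to 386 in wild type and 353 to 629 in CKO lungs, 0.44. The part of any of these in the values of the cilium genes was not tested, nor was the difference between lists.

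**Figure D4:**
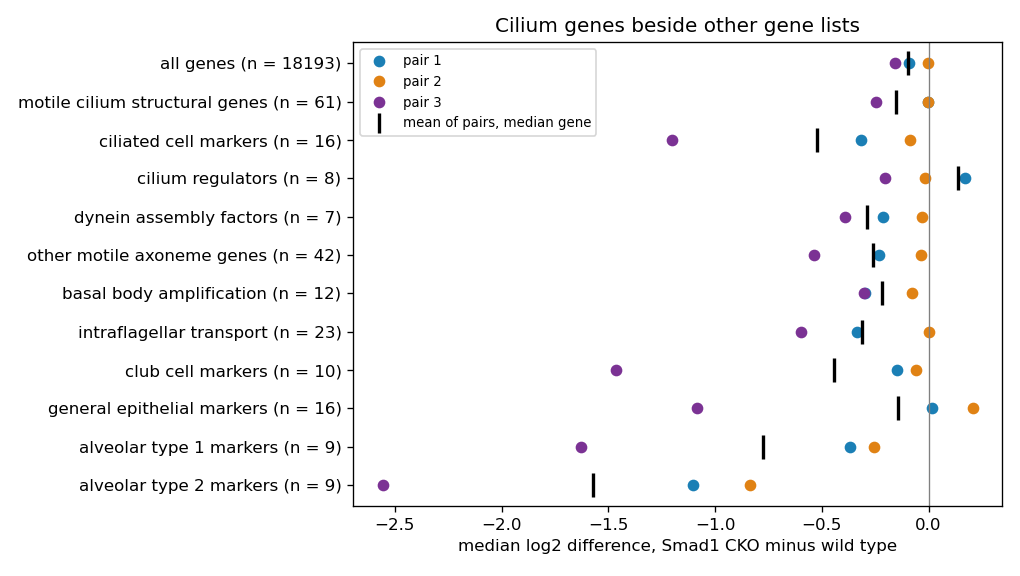
Median log2 difference (CKO minus wild type) over the genes of each list in pairs 1, 2 and 3 (coloured points) and for the mean of the pairs (black bar). The 61 motile cilium structural genes lie near all genes in every pair (points of pairs 1 and 2 coincide there), and the medians of pair 2 stay near 0 for every list of the cilium programme, while alveolar type 2 markers lie at -0.84 there.

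Agreement between probe sets limits what single members show. Of the 61 genes, 24 had more than 1 probe set, and in 16 of these the probe sets had means of both signs. The 31 genes not listed by the naming rule lay between -0.53 and 0.46, with 15 of them below 0. With 3 arrays per genotype the number of arrays limits the precision, and a missing call does not show that levels were equal.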

How the data were processed

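The 6 left lung lobes were read on Affymetrix Mouse430_2 arrays. The authors deposited RMA intensity (per the submitters' processing notes), linear by its range, with no software or settings named. Values were taken as log2(value + 1), and 64 control probe sets were dropped. Of the 45037 others, 34945 had 1 symbol, 932 several (never named) and 9160 none in the platform annotation. limma 3.58.1 (R 4.3.3; lmFit, eBayes, two-sided) compared genotypes with pair as a block, adjusting by Benjamini-Hochberg over all probe sets at 0.05, with an unadjusted 0.05 for counts. The fit was tested on simulated data. Pairs follow the design text and neighbouring array numbers under a shared letter; paired deviations from group means correlated at 0.258, 0.604 and 0.597. The closest arrays differed by a root mean square of 0.227, so none was a copy.

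The members, lists and alternatives were chosen with earlier results of these data known. Per role group, the 3 members with the highest mean and all with an unadjusted p under 0.05 were named, up to 30, plus examples from the rest, and up to 4 genes of smallest p per other list. Among ciliated cell markers, Ccdc153, Tuba1a and Tubb4b were named outside this rule. Promoter windows are RefSeq's (GRCm38.p6), matched by gene identifier. Alternatives were an unpaired fit, a pseudocount of 16, quantile or cyclic loess normalization, no dim probe sets, an intensity trend, the mean of a gene's probe sets, and leaving out pairs or CKO lungs 1 or 3.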

Additional observations from a re-analysis of the deposited data

How the results depend on the processing

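In none of the alternatives did a member pass over all probe sets. Members with an unadjusted p under 0.05, 6 lower and 3 higher, were 2 and 1 with no replicate block (all genes 3.01% and 0.97%), 7 and 6 after cyclic loess (6.25% and 8.82%), 3 and 2 without dim probe sets (12.5% and 2.47%; this left 44 members, 8 of them higher in all pairs) and 3 and 2 with the mean of a gene's probe sets (10.2% and 5.96%). Leaving out a pair or 1 CKO lung gave 2 to 6 lower and 0 to 3 higher, with a median difference of -0.17 to 0.016 and 20 to 25 lower and 18 to 19 higher in the remaining pairs. For the 30 named members, 277 of the values under alternatives kept their direction and side of the unadjusted 0.05, 41 went above it, 8 below it and 29 turned sign, all of these in members not under 0.05. After quantile normalization these were Dnal1 (0.023), Dnali1 (0.16), Rsph1 (0.0184), Spag17 (-0.13), after cyclic loess Dnal1 (0.10), Dnali1 (0.22), Rsph1 (0.14), Drc1 (0.0716), Spag17 (-0.16), Spag16 (-0.0344), and with the mean of probe sets Drc3 (0.00827), Dnal1 (0.092). Over the fits that left out a pair or a lung, members whose sign turned ran as follows: Dnah12 (-0.59 to 0.16), Spag7 (-1.11 to 0.0203), Rsph1 (-0.52 to 0.21), Tekt2 (-0.49 to 0.35), Drc1 (-0.27 to 0.19), Spag16 (-0.17 to 0.34), Cfap20 (-0.72 to 0.0531), Drc3 (-0.63 to 0.0858), Dnal1 (-0.41 to 0.016), Dnali1 (-0.31 to 0.0335), Spag17 (-0.0381 to 0.0448). The cause was not tested. The median over all genes moved from -0.09 to 0.026 after quantile and to 0.049 after cyclic loess normalization. Signal over background is not given, so dim members, 17 of them below the array median, may have levels that the arrays do not resolve.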
